A study of Homo sapiens with 4 samples.

Results

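Kinesins and centromere proteins were followed in RKO, a human colon carcinoma cell line, with and without overexpression of HADH-S. The rule for the genes used names and no measured value: every gene whose symbol is KIF or KIFC followed by a digit, or CENP followed by a letter and nothing more. This gave 58 of the 13092 genes in the deposited tables, of which 37 were kinesins and 21 were centromere proteins. One RNA library came from RKO cells labelled as overexpressing HADH-S and the other from RKO cells labelled CTL with the genotype WT. HADH is an enzyme that breaks down fatty acids in mitochondria, and the series title speaks of a nuclear isoform of it. The labels do not say how overexpression was made, whether the cells were a clone, or what the control cells received. There was 1 library per condition, so no test between conditions exists, no p-value is given, and "higher" and "lower" describe these 2 libraries only. The series' other 2 libraries, from chromatin, were not analysed here.

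The HADH-S library held 6963608 reads assigned to genes and the control library 6773421. HADH stood at 54.4 RPKM in the first and 26.5 in the second, the direction of the label. RPKM divides a gene's reads by its transcript length in kilobases and by the size of the library. Of 10 epithelial and colon markers, 4 averaged 1 RPKM or more, led by the keratin KRT18 at 93.8 and 91.7 RPKM. Of 5 fibroblast and 4 leukocyte markers, 0 reached that level.

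Kinesins are motor proteins that use ATP to walk along microtubules or to take them apart at their ends. Mitotic kinesins push spindle poles apart, slide and bundle microtubules in the midzone, move chromosomes and help to divide the cell at cytokinesis, and their transcripts accumulate as cells approach division. Transport kinesins carry vesicles, organelles and ciliary cargo in dividing and non-dividing cells alike. Centromere proteins mark the place on each chromosome where the kinetochore is built: the histone CENP-A replaces histone H3 there, a set of inner kinetochore proteins called the constitutive centromere-associated network (CCAN) binds to it, and outer proteins such as CENP-E and CENP-F join in mitosis. CENP-E is itself a kinesin and is described here with the centromere proteins.

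Mitotic kinesins and centromere proteins were slightly lower with HADH-S as groups, transport kinesins less so, and no member averaging 1 RPKM or more differed by 2-fold. Differences were measured on the log2(RPKM + 1) scale, HADH-S minus control, in the 50 members whose 2 libraries averaged 1 RPKM or more. The median was -0.14 for 12 mitotic kinesins, -0.04 for 12 transport kinesins and -0.15 for 21 centromere proteins, against 0.01 for all 10331 genes at that level. Values were below 0 in 9 of the 12 mitotic kinesins, 8 of the 12 transport kinesins and 14 of the 21 centromere proteins. Among all 10331 genes, 47.8% were below 0.

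Each ratio of RPKM carries a 95% interval computed from the reads behind it (exact conditional, Clopper-Pearson). With 1 library per condition it covers counting error only and leaves out differences between cultures or libraries. These reads carry no molecular identifiers, so reads copied from 1 molecule were not told apart and the interval may be too narrow. That interval lay wholly below 1 for 15 of the 50 members (30.0%), where 11.6% of all genes measured had such an interval. It lay wholly above 1 for 7 (14.0%), where 13.8% of all genes did, so the share of higher members was close to the background. By size, 5 members were lower by 0.32 or more on the log2(RPKM + 1) scale, against 3.65% of all genes. They were CENPK, CENPL, CENPC, CENPM and CENPJ, all in the centromere protein group by name, although CENPJ is a centriole assembly protein. A further 4 were higher by 0.32 or more, against 7.98% of all genes, namely CENPP, CENPT, KIF26A and KIF7. In bulk RNA of this kind, fewer cells in mitosis and less RNA per cell cannot be told apart.

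**Figure D1:**
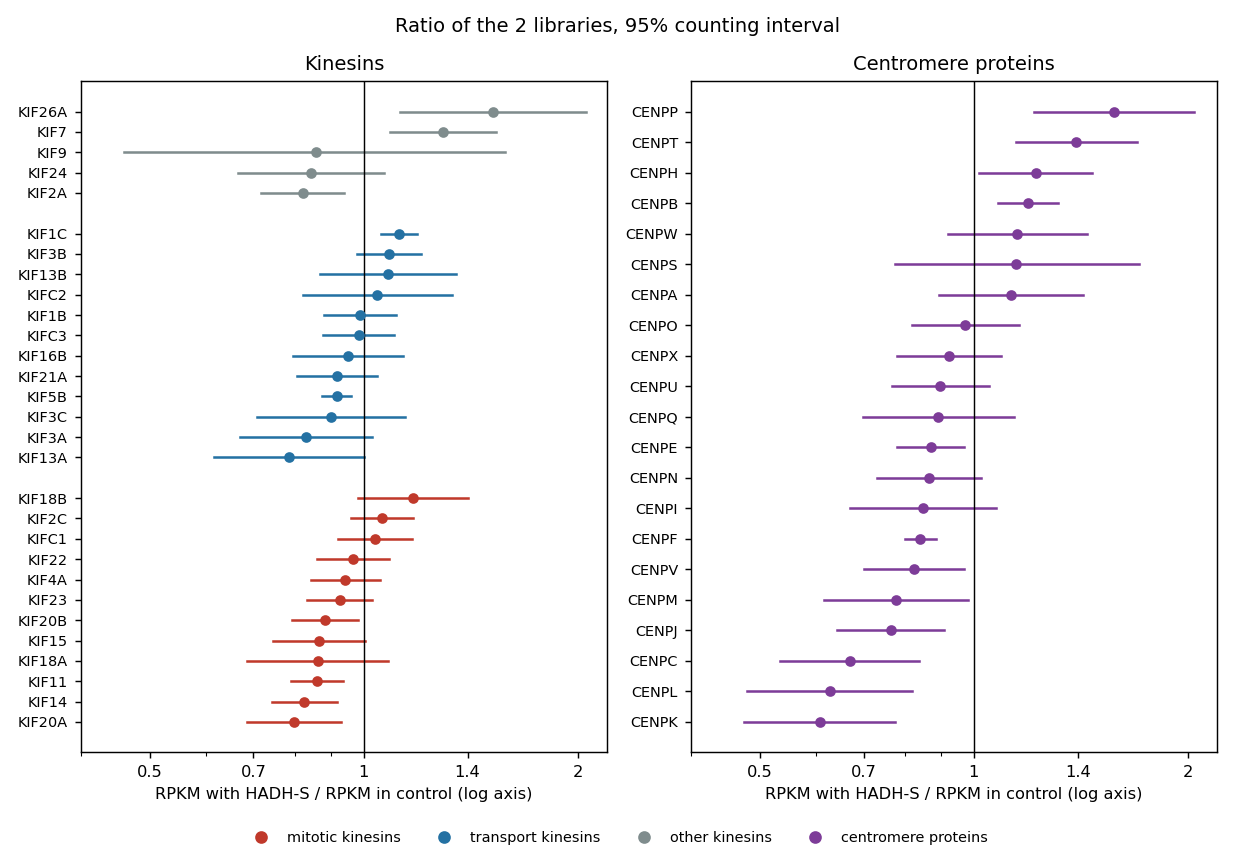
HADH-S to control ratio of RPKM (log axis) for the 50 members averaging 1 RPKM or more, by group; points are ratios and bars 95% counting intervals, from 1 library per condition. Of the 12 mitotic kinesins 9 lie left of 1, and the centromere proteins spread most widely, from 0.608 for CENPK to 1.57 for CENPP.

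The promoters of the mitotic kinesins are shown first, because most of them hold a pair of short motifs that few expressed genes hold together. Transcripts that accumulate at division are known to be controlled through a short promoter element called the cell cycle genes homology region, spelled TTTGAA, often with CCAAT boxes upstream of it. Both were searched on both strands in windows of 250 bases before to 50 bases after the transcription start in the RefSeq promoter table (GRCh38.p14), using the first start listed for each gene. TTTGAA was found in 9 of the 12 mitotic kinesins (75%), in 1 of 9 transport kinesins (11.1%) and in 5 of 18 centromere proteins (27.8%). Among the 8576 expressed genes with an entry it was found in 9.3%. CCAAT was found in 10 of the 12 mitotic kinesins (83.3%), 3 of the 9 transport kinesins and 9 of the 18 centromere proteins, against 37.7% of expressed genes. Both motifs together were found in 8 of the 12 mitotic kinesins (66.7%), 4 of the 18 centromere proteins (22.2%) and 1 of the 9 transport kinesins (11.1%). Among expressed genes the share with both was 4.2%. The mitotic kinesins without TTTGAA in this window were KIF20A, KIF22 and KIF2C. CENPH, CENPL, CENPM, KIF13B, KIFC2 and KIFC3 had no entry in the table.

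The 150 bases before the start are printed 5′ to 3′ in the direction of transcription for 5 mitotic kinesins, for CENPK, the member with the lowest ratio, and for KIF5B, the one transport kinesin with TTTGAA. Capitals mark TTTGAA or CCAAT, or the reverse complement of either. They lie at chr10:92592980-92593129 (plus strand) for KIF11, chr3:44761644-44761793 (plus) for KIF15, chr15:69414199-69414348 (plus) for KIF23, chrX:70289954-70290103 (plus) for KIF4A, chr5:138178962-138179111 (plus) for KIF20A, chr5:65563169-65563318 (minus) for CENPK and chr10:32056426-32056575 (minus) for KIF5B, all in GRCh38.p14.
KIF11: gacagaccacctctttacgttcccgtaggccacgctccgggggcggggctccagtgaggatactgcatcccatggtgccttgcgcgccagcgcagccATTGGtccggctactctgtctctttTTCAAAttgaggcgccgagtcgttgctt
KIF15: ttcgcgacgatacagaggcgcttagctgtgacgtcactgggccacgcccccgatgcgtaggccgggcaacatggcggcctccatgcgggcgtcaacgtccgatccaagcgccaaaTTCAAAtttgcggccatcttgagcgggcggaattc
KIF23: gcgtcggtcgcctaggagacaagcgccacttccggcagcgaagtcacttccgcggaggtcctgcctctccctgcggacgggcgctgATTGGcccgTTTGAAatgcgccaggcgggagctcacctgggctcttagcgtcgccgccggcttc
KIF4A: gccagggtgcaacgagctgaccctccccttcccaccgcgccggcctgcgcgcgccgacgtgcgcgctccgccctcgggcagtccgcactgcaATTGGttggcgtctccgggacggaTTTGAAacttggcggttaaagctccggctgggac
KIF20A: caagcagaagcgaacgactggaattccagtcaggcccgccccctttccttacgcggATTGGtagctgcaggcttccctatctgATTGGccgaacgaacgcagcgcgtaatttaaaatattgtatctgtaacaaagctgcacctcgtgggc
CENPK: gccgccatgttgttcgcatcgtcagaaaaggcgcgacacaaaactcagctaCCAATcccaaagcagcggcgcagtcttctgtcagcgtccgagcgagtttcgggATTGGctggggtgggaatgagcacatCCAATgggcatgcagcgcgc
KIF5B: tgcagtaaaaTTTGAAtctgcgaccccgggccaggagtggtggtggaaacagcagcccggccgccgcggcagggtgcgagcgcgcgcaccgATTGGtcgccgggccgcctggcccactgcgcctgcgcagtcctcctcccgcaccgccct
In KIF11, KIF4A and KIF23 the TTTGAA match lies between a CCAAT match and the start. TTTGAA began 28 bases before the start in KIF11, 35 in KIF15, 34 in KIF4A and 55 in KIF23. In KIF5B it began 140 bases before the start, farther out than in any of the mitotic kinesins. KIF20A and CENPK showed CCAAT matches only, 2 and 3 of them. In KIF14, KIF18B, KIF20B and KIFC1 the TTTGAA match lay after the start and is not printed. A match is a description of the letters and not a measured binding site.

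Among mitotic kinesins, the 4 whose counting interval lay below 1 were KIF20A, KIF14, KIF11 and KIF20B. KIF20A, a midzone motor needed for cytokinesis (chromosome 5, 138179112 to 138187723), was at 14.6 RPKM with HADH-S and 18.3 in the control, from 314 and 383 reads. Its ratio of 0.797 (interval 0.685 to 0.928) was the lowest of the group, and its span overlaps that of CDC23. KIF14, which works with the citron kinase at the midbody, was at 13.1 RPKM with HADH-S and 15.9 in the control (ratio 0.825, interval 0.743 to 0.916). Of the other motors of the midzone, KIF23 and KIF4A, the intervals included 1. KIF11, the tetrameric motor that pushes the spindle poles apart (chromosome 10, 92593130 to 92655395), was at 29.3 RPKM with HADH-S and 34.1 in the control. Its ratio was 0.860 (interval 0.790 to 0.936), resting on 1023 and 1157 reads. KIF20B, a relative of KIF20A, was at 14.8 against 16.8 RPKM (ratio 0.883, interval 0.794 to 0.983), with an upper bound of 1.002 after the median of its length decile was subtracted. None of the 12 had an interval above 1.

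The 3 mitotic kinesins with the highest mean RPKM over both libraries, KIF2C, KIF22 and KIFC1, had ratios between 0.966 and 1.06; in the control alone KIF11 ranked above KIFC1. KIF22, a chromosome-arm motor, was at 39.6 RPKM with HADH-S and 41.0 in the control (ratio 0.966, interval 0.860 to 1.09). KIF2C, which takes microtubules apart at kinetochores, was at 41.6 against 39.2 RPKM (ratio 1.06, interval 0.960 to 1.17). KIFC1, the minus-end motor that clusters spindle poles, was at 34.2 against 32.9 RPKM (ratio 1.04, interval 0.921 to 1.17). These intervals all include 1. KIF18A and KIF18B, related motors that limit microtubule length, lay on opposite sides of 1: KIF18A was at 6.22 against 7.22 RPKM (ratio 0.862, interval 0.686 to 1.08), whereas KIF18B was at 9.84 against 8.38 (ratio 1.17, interval 0.983 to 1.4). KIF15, KIF23 and KIF4A had ratios of 0.866, 0.925 and 0.942 with intervals that include 1. KIF4B, a near-identical copy of KIF4A, had 2 reads in the HADH-S library and 1 in the other, and how reads were divided between these copies is not given in the sources used here.

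**Figure D2:**
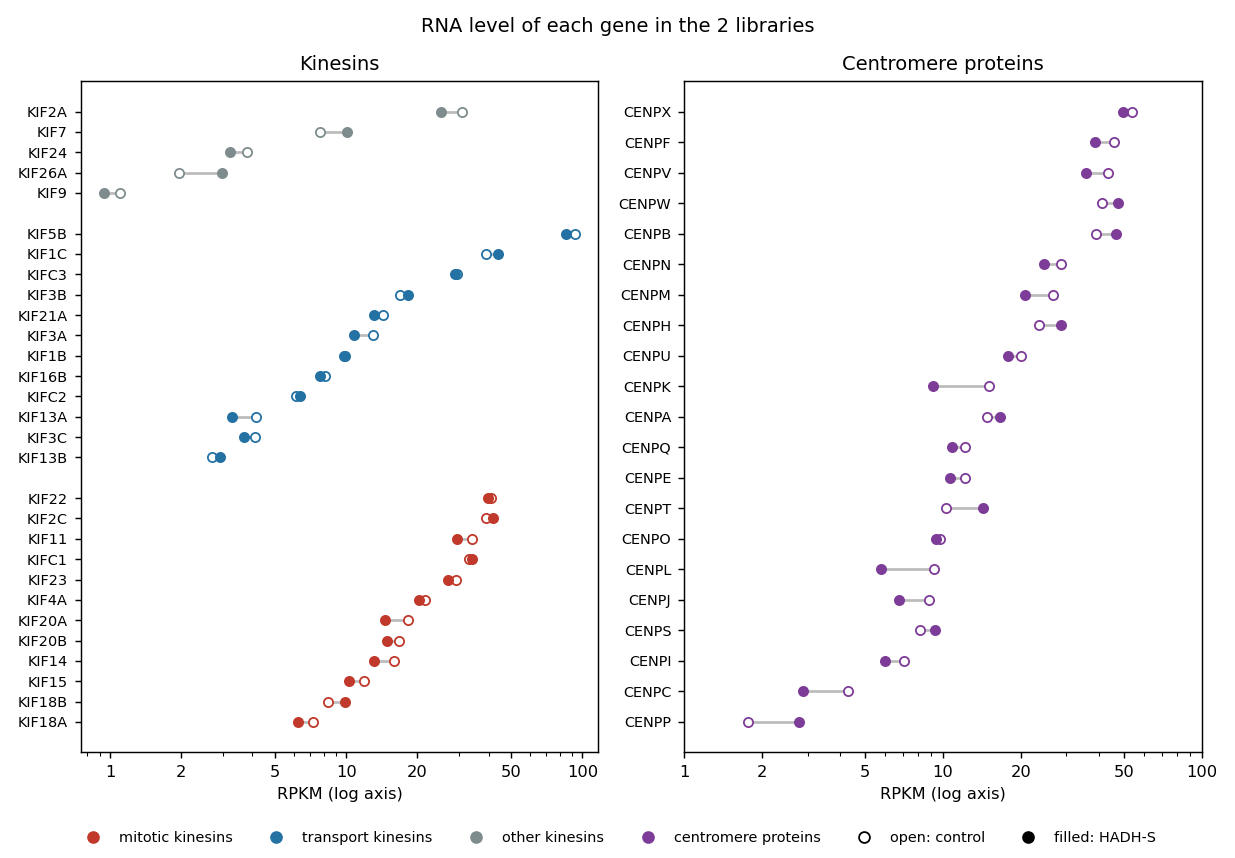
RPKM (log axis) of the same 50 genes in the control (open) and HADH-S (filled) libraries, 1 library each, ordered by the control value within each group. KIF5B stands highest at 92.9 and 85.1 RPKM, and the pairs of points are close together for most genes apart from CENPK, CENPL, CENPC, CENPP and KIF26A.

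Transport kinesins covered a wider range of levels, from 2.70 RPKM for KIF13B to 92.9 RPKM for KIF5B in the control, with smaller differences. KIF5B, the heavy chain of conventional kinesin that carries mitochondria and vesicles (chromosome 10, 32009015 to 32056425), was at 85.1 RPKM with HADH-S and 92.9 in the control. Its ratio of 0.916 (interval 0.875 to 0.960) rests on 3476 and 3690 reads, the deepest count of all members. KIF1C, a fast vesicle motor, was at 43.7 RPKM with HADH-S and 39.0 in the control (ratio 1.12, interval 1.06 to 1.19). These, the most abundant transport kinesins, therefore lay on opposite sides of 1. KIF13A, an endosome motor, was at 3.27 against 4.16 RPKM, with a ratio of 0.786 and an interval that starts at 0.616 and ends just under 1, or at 1.005 and 1.02 after the linear and the decile adjustment for length. KIFC3, a minus-end motor of epithelial junctions and the Golgi, was at 28.8 against 29.3 RPKM (ratio 0.984, interval 0.878 to 1.1).

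The subunits of kinesin-2, the motor of cilia, did not move in one direction. KIF3A was at 10.7 RPKM with HADH-S and 12.9 in the control (ratio 0.830, interval 0.669 to 1.03). Its partner KIF3B was at 18.3 against 16.9 RPKM (ratio 1.08, interval 0.977 to 1.20). KIF3C, the alternative partner of KIF3A, was at 3.68 against 4.09 RPKM (ratio 0.90, interval 0.708 to 1.14). All of these intervals include 1. The 4 transport kinesins not yet named with values, KIF1B, KIF16B, KIF21A and KIFC2, had ratios from 0.917 for KIF21A to 1.05 for KIFC2. KIF13B was at 2.92 against 2.70 RPKM.

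Roles were assigned from known functions, with earlier results of these data known. Set against each other, the mitotic median lay 0.09 below the transport median on the log2 scale (-0.14 against -0.04). Over the summed reads of each group the ratio was 0.924 for mitotic kinesins (interval 0.893 to 0.955) and 0.986 for transport kinesins (interval 0.958 to 1.01). The transport value rests mostly on KIF5B and KIF1C, with 3690 and 2093 of the group's 9204 reads in the control. Their ratios lay on opposite sides of 1, at 0.916 and 1.12. The ranges of single genes overlapped almost entirely, from -0.31 to 0.21 for mitotic and from -0.27 to 0.16 for transport kinesins. Without the genes whose span overlaps another listed gene, which removes KIF15 and KIF20A from the mitotic and KIFC2 from the transport kinesins, the difference was -0.03.

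**Figure D3:**
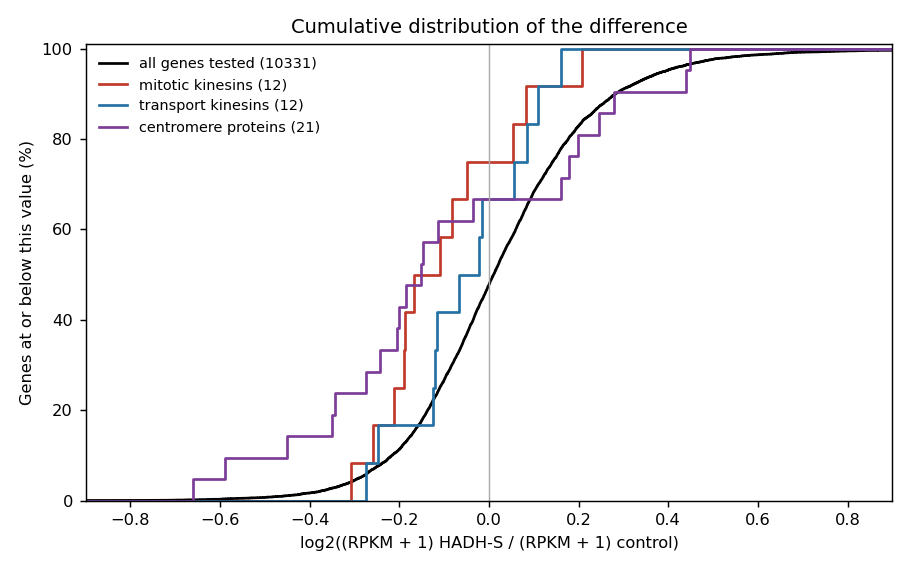
Cumulative share of genes (%) at or below each log2((RPKM + 1) HADH-S / (RPKM + 1) control), for 12 mitotic kinesins, 12 transport kinesins, 21 centromere proteins and all 10331 genes tested. Below 0 the mitotic kinesin and centromere protein curves lie mostly left of the black one, and of the 3 groups the centromere proteins reach farthest left.

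Kinesins with other roles were few, and the 3 whose interval left out 1 did not share a direction. KIF2A, which takes microtubules apart at spindle poles and in interphase, was at 25.2 RPKM with HADH-S and 30.7 in the control (ratio 0.821, interval 0.718 to 0.939). KIF7, the ciliary regulator of Hedgehog signalling, was at 10.03 against 7.76 RPKM (ratio 1.29, interval 1.09 to 1.54), in a span shared with TICRR. KIF26A, an atypical kinesin that lacks motor activity, was at 2.97 against 1.96 RPKM (ratio 1.52, interval 1.13 to 2.06), from 117 and 75 reads. The library with HADH-S was thus the lower one for KIF2A and the higher one for KIF7 and KIF26A. KIF24, a centriole kinesin, was at 3.21 against 3.80 RPKM (ratio 0.843, interval 0.666 to 1.07). KIF9 had 22 and 25 reads and a ratio of 0.856 (interval 0.460 to 1.58).

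The 8 kinesins averaging less than 1 RPKM had from 1 to 44 reads in the HADH-S library. KIF27 had 44 reads (HADH-S) and 40 (control), and KIF26B 28 and 19 (ratio 1.43, interval 0.773 to 2.72). KIF12 had 3 and 1, KIF5A 4 and 3, and KIF4B is given above. KIF6, KIF17 and KIF21B were listed with 1 read each with HADH-S and were not listed in the control. All of the last 3 are at or below 3 reads in both libraries, so no fold is given. The neuronal motors KIF1A and KIF5C were in neither table and were not analysed here.

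All 21 centromere protein genes averaged 1 RPKM or more, and they reached lower than the kinesins, to -0.66 against -0.31 on the log2 scale. Upward the extremes were close, 0.45 for CENPP and 0.43 for the kinesin KIF26A. CENPA, the centromeric histone, was at 16.6 RPKM with HADH-S and 14.8 in the control (ratio 1.13, interval 0.892 to 1.42). CENPB, which binds the CENP-B box of alpha-satellite DNA, was at 46.5 against 39.1 RPKM (ratio 1.19, interval 1.08 to 1.31). CENPC, the protein that links CENP-A nucleosomes to the outer kinetochore, was at 2.88 against 4.31 RPKM (ratio 0.670, interval 0.535 to 0.837), from 137 and 199 reads. The DNA-binding and nucleosome-binding proteins thus lay on both sides of 1.

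Within the CCAN, ratios ran from 0.608 for CENPK to 1.57 for CENPP. Of its 15 measured members 10 were below 0, with a median of -0.15. An interval lay below 1 for 4 (26.7%, against 11.6% of all genes) and above 1 for 3 (20%, against 13.8%). In the subcomplex of CENP-H, CENP-I, CENP-K and CENP-M, CENPK (chromosome 5, 65495624 to 65563168) had the lowest ratio of the 50 members, 9.13 RPKM with HADH-S against 15.01 in the control. That ratio was 0.608 (interval 0.475 to 0.776), from 110 and 176 reads. CENPM was at 20.7 against 26.6 RPKM (ratio 0.777, interval 0.615 to 0.980). CENPI had a ratio of 0.848 (interval 0.669 to 1.07). Their partner CENPH was at 28.6 RPKM with HADH-S against 23.4 in the control (ratio 1.22, interval 1.02 to 1.47). That interval began at 0.967 or 0.979, and so included 1, after either adjustment for transcript length.

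CENPL, of the pair CENP-L and CENP-N that reads the CENP-A nucleosome, was at 5.79 RPKM with HADH-S and 9.21 in the control (ratio 0.629, interval 0.480 to 0.819). CENPN was at 24.6 against 28.5 RPKM (ratio 0.866, interval 0.731 to 1.02). Both were lower with HADH-S, CENPN within counting error. In the subcomplex that includes CENP-O, CENP-P, CENP-Q and CENP-U, the last of which recruits the kinase PLK1, CENPP was the one with an interval off 1. It was at 2.77 RPKM with HADH-S and 1.76 in the control (ratio 1.57, interval 1.22 to 2.04), from 160 and 99 reads. CENPO, CENPQ and CENPU had ratios of 0.973, 0.892 and 0.898, with intervals that include 1. The large span of CENPP overlaps IPPK and OGN, and whether reads were counted by strand is not given in the sources used here.

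The histone-fold proteins CENP-T, CENP-W, CENP-S and CENP-X, which together bind DNA and in the case of CENP-T recruit the NDC80 complex, were mostly higher. CENPT was at 14.2 RPKM with HADH-S and 10.2 in the control (ratio 1.39, interval 1.14 to 1.69), and it overlaps NUTF2 and THAP11. CENPW was at 47.3 against 41.1 RPKM (ratio 1.15, interval 0.919 to 1.44). CENPS was at 9.36 against 8.16 (ratio 1.15, interval 0.774 to 1.71). CENPX, the most abundant centromere protein gene, was at 49.4 against 53.6 RPKM (ratio 0.922, interval 0.779 to 1.09). Of this subcomplex, CENPT alone had an interval that left out 1. CENPS shares its locus with the readthrough gene CENPS-CORT, which is outside the rule and was at 0.196 and 0.201 RPKM.

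The outer proteins, which are the large mitotic ones, were both lower with HADH-S. CENPF, a coiled-coil protein of the outer kinetochore and nuclear envelope (chromosome 1, 214603195 to 214664571), was at 38.6 RPKM against 45.8 in the control. Its interval of 0.799 to 0.885 around a ratio of 0.841 was narrow, since it rests on 2763 and 3195 reads. CENPE, the kinesin that carries chromosomes to the spindle equator, was at 10.6 against 12.2 RPKM (ratio 0.869, interval 0.780 to 0.969). Its interval reached 1.01 once the median of all genes of similar length was subtracted. The centromere protein genes not yet named were lower as well. CENPJ, a centriole assembly protein, was at 6.75 against 8.83 RPKM (ratio 0.765, interval 0.643 to 0.909). CENPV was at 35.6 against 43.3 RPKM (ratio 0.823, interval 0.70 to 0.968).

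Transcript length bears on these values in 3 ways. RPKM divides reads by the length in the row label, which is the same in both tables, so the ratio between libraries is free of it, whereas the level is not. The labelled transcripts of mitotic kinesins had a median of 3905.5 nt (2113 to 7291), those of transport kinesins 5440 nt (2181 to 8746) and those of centromere proteins 2357 nt (528 to 10290). The coding part made up 10.4% of the labelled transcript in CENPP and 21.9% in CENPO, but 99.9% in KIF3A, KIF13A and KIF26A. Levels of such genes are therefore on different footings when compared with each other.

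Length also sets how many reads stand behind a level. CENPW, with 528 nt, was at 41.1 RPKM in the control from 147 reads, while CENPC, with 6823 nt, was at 4.31 RPKM from 199 reads. The third way is a trend over all genes, in which longer transcripts were slightly lower with HADH-S. From the shortest to the longest 10% of transcripts, the median log2 value fell from 0.06 to -0.06 and the share of genes with an interval below 1 grew from 5.59% to 25.7%. The shares of members with an interval below 1 are to be read against that range as well as against 11.6%.

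Members did not follow this trend as a whole. Across the 50 members, Spearman's rho between length and log2 value was 0.01, against -0.19 across the 10331 genes; members share the same 2 libraries and are not independent replicates. Among mitotic kinesins it was -0.49 and among transport kinesins 0.45, each over 12 genes. After the median of all genes in the same length decile was subtracted, the median was -0.14 for mitotic kinesins, -0.05 for transport kinesins and -0.18 for centromere proteins. CENPK and CENPL, the lowest ratios, come from transcripts of 1731 and 2357 nt, a length range in which the median of all genes was above 0.

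**Figure D4:**
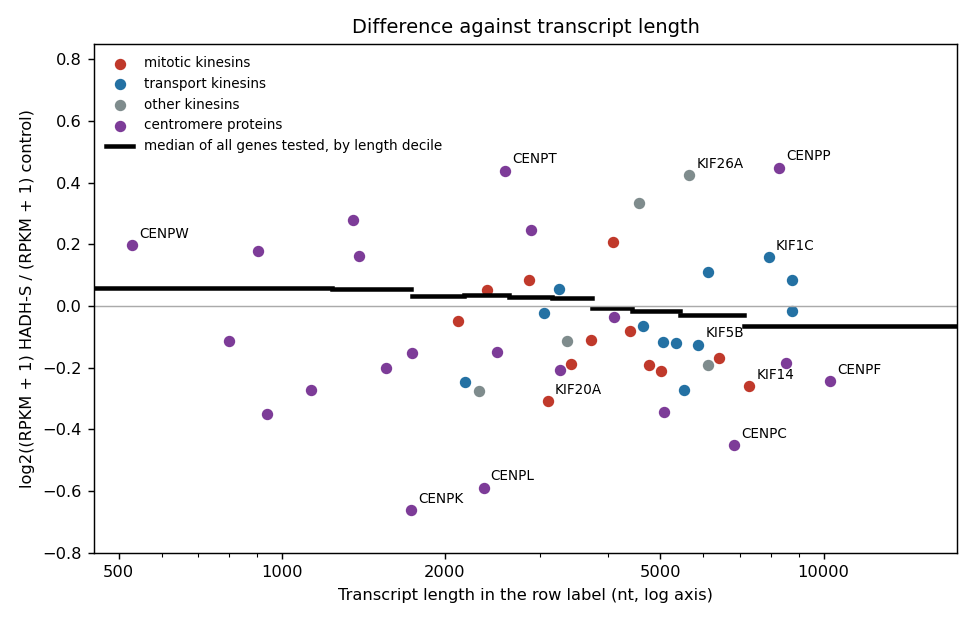
Log2 difference between the libraries against transcript length (nt, log axis) for the 50 members, coloured by group; black bars give the median of all genes tested in each length decile. The bars fall from 0.06 to -0.06, and members lie on both sides of them over most of the range, with CENPK and CENPL lowest at 1731 and 2357 nt.

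Genes that work beside the members in mitosis had medians closer to 0, with shares of intervals below 1 that reached those of the members. Of 30 kinetochore partners (the NDC80, MIS12 and SKA complexes, checkpoint proteins, the chromosomal passenger complex and CENP-A loading factors), 18 were below 0, with a median of -0.06, and 7 had an interval below 1 (23.3%, against 11.6% of all genes) and 2 above (6.67%, against 13.8%). The largest differences were those of the NDC80 complex subunit SPC25 (20.5 against 27.9 RPKM, ratio 0.735, interval 0.606 to 0.890), the CENP-A loading factor OIP5 (8.25 against 11.2 RPKM, ratio 0.738, interval 0.531 to 1.02) and the checkpoint protein KNTC1 (5.58 against 7.60 RPKM, ratio 0.734, interval 0.625 to 0.862). Of 18 spindle and cytokinesis partners averaging 1 RPKM or more, 11 were below 0 (median -0.03), 6 had an interval below 1 (33.3%, the same share as the mitotic kinesins) and 0 had one above. ASPM (ratio 0.835) and the cytokinesis scaffold ANLN (ratio 0.849) were among the 3 with the largest differences, and HMMR was higher, at 2.90 against 2.10 RPKM, with an interval of 0.919 to 2.09.

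Genes of microtubule transport set beside the transport kinesins, those of the separate motor dynein among them, had single values on both sides of 0. Of 22 kinesin light chains, adaptors and dynein or dynactin subunits, 11 were below 0 and 11 above (median 0.01), with 3 intervals above 1 (13.6%) and 2 below (9.09%), shares near those of all genes. Over their summed reads the ratio was 1.07 (interval 1.04 to 1.09). The gene with the most reads was DYNC1H1, the dynein heavy chain, chosen after its values were seen. It held 4509 of the 13800 summed reads with HADH-S and 3644 of 12563 in the control, so the summed ratio leans on this 1 gene. DYNC1H1 was at 32.5 against 27.0 RPKM (ratio 1.20, interval 1.15 to 1.26), from 4509 and 3644 reads. KLC2, a light chain that joins KIF5 motors to cargo, was at 26.2 against 21.1 RPKM (ratio 1.24, interval 1.09 to 1.41). KLC3 had 20 and 14 reads (ratio 1.39, interval 0.668 to 2.97), and the mitochondrial adaptor TRAK1 was at 7.04 against 5.72 RPKM (ratio 1.23, interval 0.974 to 1.56). KLC2 was thus higher with HADH-S while KIF5B, the motor it joins, was lower. The light chains KLC1 and KLC4 had ratios of 0.878 and 0.821, with intervals that include 1. The 2 intervals below 1 were those of DYNC1I2 (ratio 0.861) and HOOK3 (ratio 0.854).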

How the data were processed

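RNA of 1 HADH-S and 1 control RKO culture was measured; total RNA was isolated with Trizol and made into mRNA libraries, per the labels' protocols. The authors deposited 1 RPKM value per gene and library, with a transcript length in each row label. Per the submitters' processing notes, shared by all 4 samples, fastp 0.23.2, SAMtools 1.9 and GRCh38 were used; the RNA aligner, the counter and use of strand are not given in these sources. RPKM multiplied by length was a whole multiple of 1 step per library within 0.01 reads, which gave the reads; genes in 1 table only were taken as 0 in the other. A pseudocount of 1 on RPKM, a minimum mean RPKM of 1 and a size limit of 0.32 on the log2 scale were used (Python 3.11.15, SciPy 1.17.1). At the median transcript length of the genes measured, 3 reads were 0.137 RPKM with HADH-S and 0.141 in the control. Each of the 58 members had RefSeq coordinates (GRCh38.p14).

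The naming rule, role lists and partner lists were chosen with earlier results of these data known. Members named with values are those whose interval left out 1, the 3 most abundant and the 3 with the largest difference in each group, those listed in 1 table, and, chosen after values were seen, the rest of each CCAN subcomplex, of kinesin-2 and of KIF18. The steps were run on simulated reads that held counting error only. That run cannot speak to differences between cultures, copied reads or the length trend. Alternatives covered pseudocounts, filters, scaling, length trends, role assignment and folds.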

Additional observations from a re-analysis of the deposited data

How the results depend on the processing

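No paired analysis was possible because each condition had 1 library, and no replicate could be left out. Under 14 alternatives each, the medians kept their sign, from -0.17 to -0.10 for mitotic kinesins, from -0.07 to -0.02 for transport kinesins and from -0.20 to -0.10 for centromere proteins. The mitotic median stayed below the transport median, with a difference from -0.12 to -0.03 (-0.09 as reported). These are not 14 separate checks, because some could not move a value. Adding a gene to the mitotic kinesins left the transport median as it was. Rescaling to a median log2 of 0 left the difference as it was. The smallest difference came without the 12 members whose span overlaps another listed gene, an alternative chosen after seeing the data. With the mean in place of the median it was -0.05.

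Counts of members past the fold followed the fold and the low genes. The 4 higher members became 1 with a pseudocount of 5, 2 at a mean RPKM of at least 5, 1 without overlapping genes, 11 at a fold of 1.1 (where 25.8% of all genes were called), 0 at 1.5 (1.47%) and 0 at 2. The 5 lower members became 2 with a pseudocount of 5, 22 at a fold of 1.1 (19.9% of all genes), 2 at 1.5 (0.436%) and 0 at 2. The 7 intervals above 1 became 4 without overlapping genes, and the 15 below 1 ranged from 12 to 16. Removing either length trend ended the calls of CENPH and KIF13A, and subtracting the length decile's median also ended those of CENPE and KIF20B. Intervals newly below 1 were those of CENPN under both length adjustments, KIF3A under the linear one and KIF15 under both rescalings. No single member whose interval left out 1 changed sign under the scalings and length adjustments. Other pseudocounts and filters cannot change the sign of a single gene. Depth limits KIF9, CENPS and the 8 kinesins below a mean RPKM of 1.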
